A study of Mus musculus with 8 samples.

Results

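The genes described here are 10 genes of iron storage and of hepcidin, the liver hormone of iron balance, out of 21441 named genes on the arrays: Hamp, Hamp2, Fth1, Ftl1, Tfrc, Tfr2, Slc40a1, Slc11a2, Bmp6 and Hfe. They were chosen by name, and every probe outside the array's controls whose symbol or older symbol matched one of them was taken, which gave 14 probes. Of the 10 genes, 9 had probes in the authors' table, 13 in all. The remaining gene, Tfr2, was found on the arrays through the RefSeq accession of its probe. Whole liver of male mice with a C57BL/6J background was measured after 3 months of high-fat diet, in 4 wild-type (WT) samples and 4 samples lacking the microRNA miR-223 (miR-223KO), so both groups had the diet and neither was on a control diet. The labels name a genotype for the whole animal, with no Cre line or cell type. Each sample filled 1 Agilent 2-colour array. Cy5 carried the liver RNA, Cy3 carried the same purchased mix of mouse RNA on every array, and no dyes were swapped. A log2 ratio below is Cy5 over Cy3 for 1 array, and a log2 fold change is the mean of these ratios in miR-223KO minus that in WT.

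Hepatocytes secrete hepcidin, which binds the iron exporter ferroportin on gut cells and macrophages and sends it for degradation, so that less iron enters the blood. In liver, BMP6 from sinusoidal endothelial cells and the sensors HFE and transferrin receptor 2 raise hepcidin transcription when iron is plentiful, and IL-6 raises it through STAT3 in inflammation. Inside cells, iron is stored in ferritin, a shell of heavy and light chains. Iron regulatory proteins hold back ferritin translation and stabilise the mRNA of transferrin receptor 1 when iron is scarce, so ferritin protein can change with no change in its mRNA.

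The mature strand of the deleted microRNA is shown first, with its seed (bases 2 to 8, the part that pairs with targets) in capitals, from RefSeq (GRCm38.p6).
mmu-miR-223-3p: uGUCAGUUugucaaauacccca
The arrays held 0 probes named Mir223, so the deletion was not checked on them.

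Mice carry a pair of neighbouring hepcidin genes, Hamp and Hamp2, with no protein-coding gene between them, and their probes are shown because the sequences are close. Of the 60 bases of each probe, the 53 bases below end at the stop codon of the coding sequence. They are identical at 42 positions, and capitals mark the 11 that differ. The whole probes align over 59 bases, with the same 42 identical and none beyond the printed stretch. The longest identical run is 14 bases.
Hamp: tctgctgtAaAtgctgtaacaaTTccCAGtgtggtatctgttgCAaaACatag
Hamp2: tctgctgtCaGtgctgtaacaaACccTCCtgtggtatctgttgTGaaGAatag
Whether RNA of one gene bound the other's probe was not tested. The promoters are closer still, with 227 of 247 aligned upstream bases identical. The stretches below show where they part, and capitals mark a BMP-responsive core (GGCGCC) and a STAT site (TTCNNNGAA), both searched on both strands of RefSeq promoters (250 bases before to 50 after the start). The Hamp stretch is chr7:30944099-30944158 and the Hamp2 stretch chr7:30924248-30924307, both on the minus strand of GRCm38.p6, beginning 129 and 126 bases before the start, and 54 of their 60 bases are identical.
Hamp: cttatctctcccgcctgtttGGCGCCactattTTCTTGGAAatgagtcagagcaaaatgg
Hamp2: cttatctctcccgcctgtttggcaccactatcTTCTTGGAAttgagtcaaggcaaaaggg
The GGCGCC letters stand in the Hamp window and not in that of Hamp2, while both hold the STAT letters. Among 8 members with a promoter in the table, GGCGCC was found in Hamp and Tfrc, and TTCNNNGAA in Hamp and Hamp2. Of all 32851 promoters, 11.9% hold GGCGCC and 8.3% hold TTCNNNGAA. These matches describe the sequence and show no binding.

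The level and spread of the members rest on spots that differ much in brightness. Over the 8 arrays, 49.5% to 69.8% of spots were well above background in Cy5, and the median Cy5 intensity was 79.5 to 187. All 12 hepatocyte marker genes on the arrays were well above background on all 8. In both groups replicates 1 and 2 were on slide 1 and replicates 3 and 4 on slide 2. Between 2.00% and 5.67% of spots carried an outlier flag from the scanner software, most often on the brightest probes. A flag stood on at least 1 array for 3.31% of probes with a mean log2 signal under 8 and for 95.5% of those above 14. These flagged spots were left out of the main comparison, which removed Hamp, Ftl1 and Tfr2 from the test because too few values remained. The same comparison with flagged spots kept tested all 10 members, and values from it are named as such.

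No difference between miR-223KO and WT was detected for any of the iron storage and hepcidin genes. In limma, 0 of 7 members tested passed an adjusted p of 0.05, against 0.0119% of the 16755 genes and unnamed probes tested (2 calls, the protease gene Ctse, higher, and the anion transporter gene Slco1a1, lower). When flagged spots were kept, 0 of 10 passed, against 0.00562% of 17782. At an unadjusted p under 0.05, 0 of 7 and 0 of 10 members stood, against 4.67% and 4.72% of all tested. The groups overlapped at every member probe, with flagged spots kept, against 2.74% of all tested genes with separated groups in that setting and 3.09% with flagged spots left out. The members' median log2 fold change was 0.08 with 4 higher and 3 lower, against -0.01 over all tested, of which 48.2% lay higher. Keeping flagged spots gave a median of 0.11, with 6 higher and 4 lower. Every member's 95% interval included 0, and these intervals set bounds on the change and do not show that the groups were alike. Separate mice are not stated in the labels, and if samples share a mouse the p-values measure only a spread that may be technical.

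**Figure D1:**
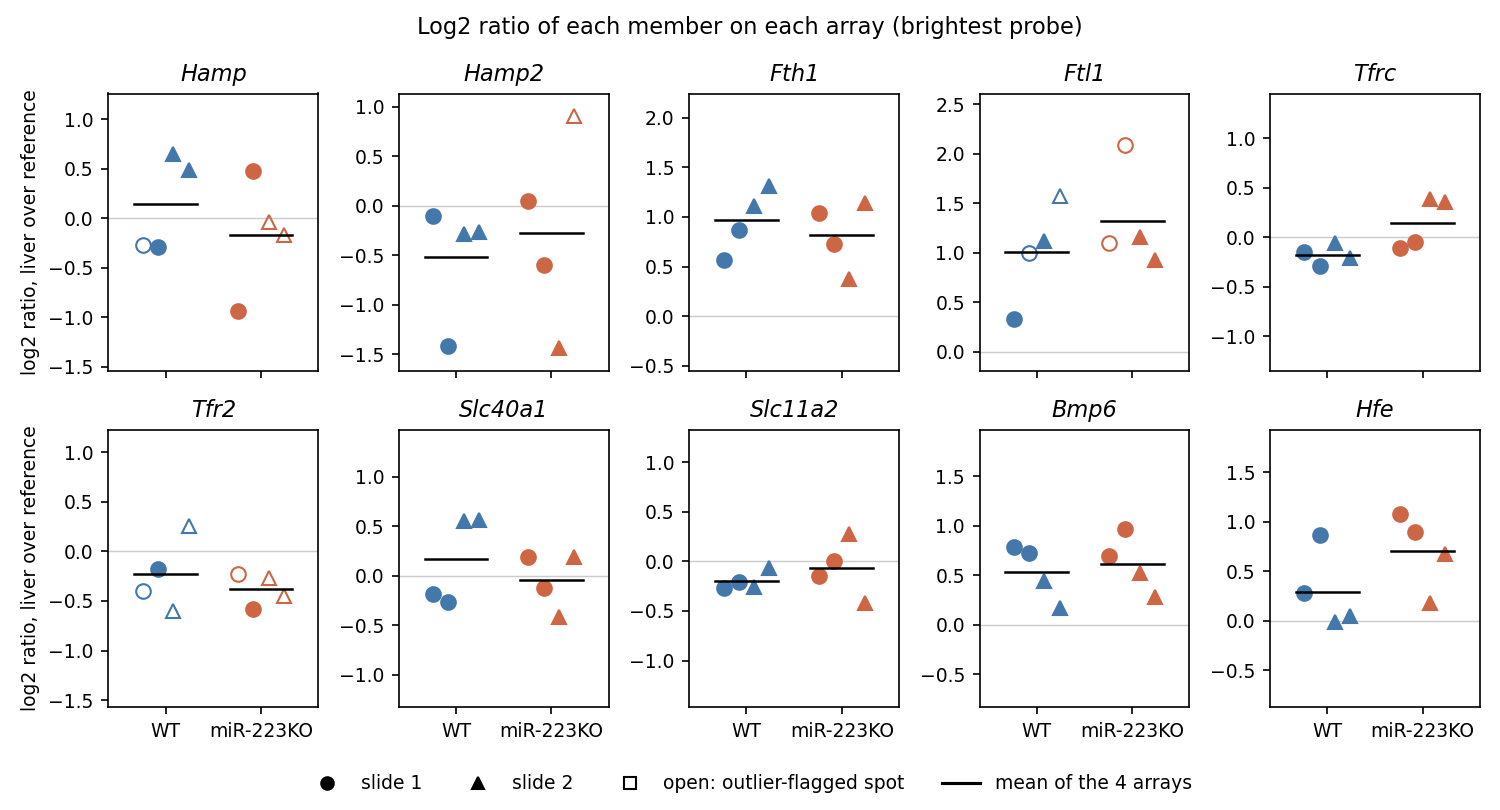
Log2 ratio of Cy5 liver RNA over the Cy3 reference (y axis) for each of the 10 genes on each array, in WT (blue) and miR-223KO (orange), at the brightest probe; every panel spans the same height. Circles are slide 1, triangles slide 2, open symbols outlier-flagged spots, and bars the mean of the 4 arrays. The groups overlap in every panel. Hamp spreads by more than 1 unit within the miR-223KO group, and Hamp2 and Ftl1 do so within each group.

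Hamp encodes hepcidin itself, and its level varied more within the groups than between them. The log2 ratio of its probe (A_52_P669922) was -0.27 (flagged), -0.29, 0.65 and 0.49 on WT arrays 1 to 4, and -0.93, 0.48, -0.04 (flagged) and -0.17 (flagged) on miR-223KO arrays 1 to 4. The lowest value was miR-223KO replicate 1 and the highest WT replicate 3, and miR-223KO replicate 2 lay close to the higher WT values. With flagged spots kept the means were 0.15 ± 0.49 (SD, n = 4) in WT and -0.17 ± 0.58 (SD, n = 4) in miR-223KO. Hamp thus had a log2 fold change of -0.31 (SE 0.29, 95% interval -0.93 to 0.31, limma adjusted p = 0.977). This interval runs from 0.525 to 1.24 times the WT level. With 1 replicate left out it ran from -0.53 (without miR-223KO replicate 2) to -0.06 (without miR-223KO replicate 1), and it was -0.14 without WT replicate 3. Within the slides the difference was 0.05 on slide 1 and -0.67 on slide 2. By channel, as normalised between arrays with flagged spots kept, it was -0.15 in Cy5 and 0.16 in Cy3. The authors' deposited table gives a log2 fold change of -0.21 for this probe.

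Hamp2, whose peptide is not known to act on iron as that of Hamp does, showed the widest spread of any member. Its log2 ratio (probe A_52_P21486) was -0.11, -1.41, -0.28 and -0.26 in WT, and 0.05, -0.60, -1.44 and 0.90 (flagged) in miR-223KO. WT replicate 2 and miR-223KO replicate 3 stood far below the rest, and the flagged spot was the highest of all 8. The log2 fold change was -0.15 (SE 0.35, 95% interval -0.88 to 0.59, limma adjusted p = 0.992) without the flagged spot and 0.24 (SE 0.40) with it, so 1 array set its sign. It was also 0.24 when miR-223KO replicate 3 was left out. The authors' deposited table gives 0.28. The slides differed here too, at 0.48 on slide 1 and -1.17 on slide 2, or 0.00 on slide 2 with the flagged spot kept.

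By the rule of highest Pearson r with the Hamp probe over the 8 arrays, among 11579 genes with flagged spots kept, the genes most like Hamp were Eea1 (r = 0.96), an early endosome tether, Me2 (r = 0.94), a mitochondrial malic enzyme, and Xpc (r = 0.94), a DNA damage sensor. On Me2 the log2 ratio was -0.06, -0.33, 0.29 and 0.37 in WT and -0.51, 0.14, -0.04 and -0.01 in miR-223KO. Its order over the arrays thus ran close to that of Hamp, with miR-223KO replicate 1 lowest. Among the iron genes described below, the highest was Nubp1, a cytosolic iron-sulfur assembly factor (r = 0.79, rank 151). With 8 arrays that share a reference and 2 slides, high values of r over so many genes are a description only.

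Upstream of hepcidin, the ligand gene Bmp6 and the sensor gene Hfe lay slightly higher in miR-223KO without passing, and Tfr2 slightly lower. Bmp6 had a pair of probes. The brighter one (A_52_P468441) read 0.79, 0.73, 0.44 and 0.17 in WT and 0.69, 0.97, 0.53 and 0.28 in miR-223KO. In both groups the values of slide 2 were below those of slide 1, and the groups overlapped on each slide. Its log2 fold change was 0.08 (SE 0.20, 95% interval -0.35 to 0.52, limma adjusted p = 0.993), and it was 0.07 on slide 1 and 0.09 on slide 2. Its sign turned when WT replicate 4 (-0.04) or miR-223KO replicate 2 (-0.03) was left out. The dimmer probe (A_52_P413646) read 0.64, 0.98, 0.53 and 0.50 in WT and 0.54, 0.52, 0.56 and 0.87 in miR-223KO, a difference of -0.04.

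Hfe, which encodes an MHC class I-like partner of the transferrin receptors, had the largest fold change of the members, and its probes disagreed in size. The brighter probe (A_51_P505538) read 0.28, 0.86, -0.02 and 0.04 in WT and 1.07, 0.90, 0.18 and 0.68 in miR-223KO. On each slide both miR-223KO values lay above both WT values, and the groups overlapped only across slides, where WT replicate 2 exceeded the miR-223KO values of slide 2. The log2 fold change was 0.42 (SE 0.24, 95% interval -0.09 to 0.92, limma adjusted p = 0.98), 0.42 within each slide, and a factor of 1.33 with bounds of 0.943 and 1.89. With slide as a block, and without WT replicate 2 or miR-223KO replicate 3, Hfe had an unadjusted p under 0.05 and did not pass after adjustment. The dimmer probe (A_52_P193022) read -0.48, -0.06, 0.13 and -0.03 in WT and -0.29, 0.21, 0.16 and -0.17 in miR-223KO, a log2 fold change of 0.08. The authors' deposited table gives 0.56 and 0.10 for these probes.

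Tfr2, the hepatocyte sensor of transferrin-bound iron, was measured at 1 probe (A_51_P101474) with an outlier flag on 6 of 8 arrays. It read -0.40 (flagged), -0.18, -0.60 (flagged) and 0.26 (flagged) in WT, and -0.23 (flagged), -0.58, -0.27 (flagged) and -0.45 (flagged) in miR-223KO. The miR-223KO values all lay inside the WT range. With flagged spots kept the log2 fold change was -0.15 (SE 0.21, 95% interval -0.59 to 0.29, limma adjusted p = 0.980), with -0.12 on slide 1 and -0.19 on slide 2. Leaving out WT replicate 4, the highest value, gave 0.01.

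Among the transporters, Tfrc and Slc11a2, which bring iron into cells, read higher in miR-223KO and the exporter gene Slc40a1 read lower, and none passed. Tfrc encodes transferrin receptor 1 and was printed as 10 spots of 1 probe (A_52_P228236) on each array. Its log2 ratio was -0.15, -0.29, -0.06 and -0.21 in WT and -0.11, -0.05, 0.39 and 0.35 in miR-223KO, each the mean of its unflagged spots. Both miR-223KO arrays of slide 2 stood above all others, while miR-223KO replicate 1 lay among the WT values. The SD over the single spots of 1 array was 0.083 to 0.33, and each array value is the mean of 7 to 10 such spots. The log2 fold change was 0.32 (SE 0.18, 95% interval -0.07 to 0.71, limma adjusted p = 0.98), with 0.14 on slide 1 and 0.51 on slide 2, a factor of 1.25 with bounds of 0.954 and 1.64. By channel, as normalised between arrays, it was 0.50 in Cy5 and 0.18 in Cy3. The authors' deposited table gives 0.45.

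Slc11a2, which encodes the divalent metal transporter DMT1, had 3 probes, all with a positive difference. The brightest (A_52_P254298) read -0.27, -0.21, -0.26 and -0.07 in WT and -0.14, 0.01, 0.28 and -0.42 in miR-223KO. The lowest and the highest value were both in miR-223KO, on slide 2. Its log2 fold change was 0.13 (SE 0.19, 95% interval -0.27 to 0.53, limma adjusted p = 0.985). The second probe (A_52_P196476) read -0.52, -0.54, -0.47 and -0.41 in WT and -0.05, -0.39, -0.12 and -0.46 in miR-223KO, a difference of 0.23 that replicate 4 of miR-223KO did not share. The third (A_51_P388737) differed by 0.20 and was well above background on 3 of 4 WT arrays. For the brightest probe the log2 signal as normalised between arrays differed by -0.17 in the liver channel and by -0.31 in the reference channel.

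Slc40a1 encodes ferroportin, the target of hepcidin, and in liver is expressed mainly in Kupffer cells. Its log2 ratio (probe A_51_P389988) was -0.19, -0.27, 0.56 and 0.57 in WT and 0.19, -0.13, -0.42 and 0.19 in miR-223KO. The WT samples parted by slide, low on slide 1 and high on slide 2, and the miR-223KO samples did not. On slide 1 both miR-223KO values lay above both WT values (difference 0.26) and on slide 2 both lay below (difference -0.68). Over both slides the log2 fold change was -0.21 (SE 0.23, 95% interval -0.70 to 0.28, limma adjusted p = 0.98). It was -0.35 without WT replicate 2, and -0.08 when replicate 3 of either group or WT replicate 4 was left out. As normalised between arrays, the liver channel differed by -0.03 and the reference channel by 0.18. In bulk liver, fewer cells of a type and less RNA per cell cannot be told apart. Of 9 resident Kupffer cell markers tested, 7 read higher (48.2% over all tested), with a median log2 fold change of 0.21 (Clec1b 0.56, Csf1r 0.54). Among these 9 markers, 0 passed and 3 had an unadjusted p under 0.05, against 4.67% of all tested. Keeping flagged spots gave 8 of 10 higher with a median of 0.37. Their level, the mean log2 ratio of an array's unflagged markers after subtracting that array's mean over all genes, was -0.35 to 0.37 over the WT arrays and -0.12 to 0.27 over the miR-223KO arrays. Their part in the Slc40a1 values was not tested.

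Both ferritin chains were well above background on all 8 arrays, and their differences, neither past the test, pointed opposite ways. Fth1, the heavy chain with the ferroxidase activity that loads iron, read 0.56, 0.87, 1.11 and 1.31 in WT (probe A_52_P49601) and 1.04, 0.73, 0.38 and 1.14 in miR-223KO. Only miR-223KO replicate 3 lay below the WT range, and with it left out the log2 fold change was 0.00. Over all arrays the change was -0.14 (SE 0.22, 95% interval -0.61 to 0.32, limma adjusted p = 0.988), between 0.657 and 1.25 times the WT level, with 0.16 on slide 1 and -0.45 on slide 2. It turned to 0.24 when arrays were centred on their median in place of loess, and the authors' deposited table gives 0.09.

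Ftl1, the light chain that helps iron mineralise inside the shell, read 0.33, 0.99 (flagged), 1.12 and 1.57 (flagged) in WT and 1.10 (flagged), 2.08 (flagged), 1.16 and 0.92 in miR-223KO (probe A_52_P501733). WT replicate 1 was the lowest and miR-223KO replicate 2, a flagged spot, the highest, and the remaining 6 values ran from 0.92 to 1.57. With flagged spots kept the log2 fold change was 0.31 (SE 0.28, 95% interval -0.29 to 0.91, limma adjusted p = 0.977), with 0.93 on slide 1 and -0.31 on slide 2. As normalised between arrays, the liver channel differed by 0.01 and the reference channel by -0.30.

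**Figure D2:**
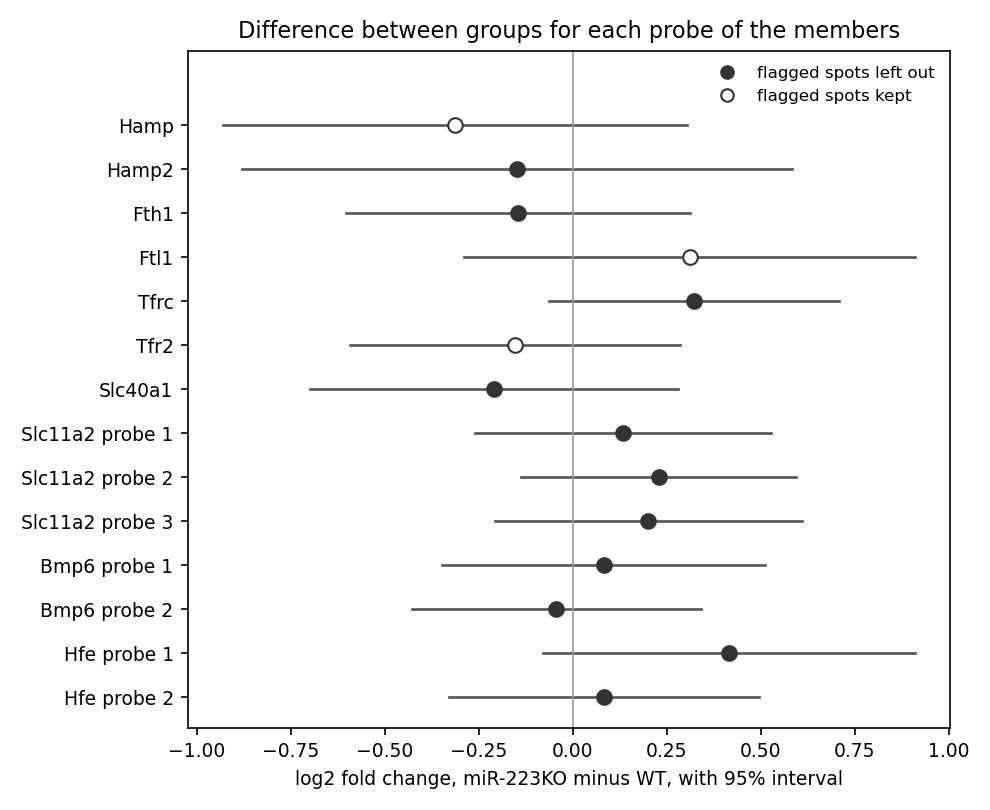
Log2 fold change of miR-223KO minus WT (x axis) for each of the 14 probes, with its 95% interval from limma as a line. Filled points leave out flagged spots and open points keep them, and every interval includes 0.

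For several members the difference between the genotypes was not alike on the slides, and none of these slide terms passed. A term for the difference of the fold change between slides, added after the data were seen, gave -1.65 (SE 0.60) for Hamp2, -0.93 (SE 0.37) for Slc40a1 and, with flagged spots kept, -1.23 (SE 0.49) for Ftl1, each as slide 2 minus slide 1. For Hamp2 the miR-223KO group had 1 array on slide 2 there, and with the flagged spot kept its term was -0.48 (SE 0.84). The unadjusted p was 0.0172, 0.0252 and 0.0253 in that order (0.58 for Hamp2 with the flagged spot kept), and in limma none passed adjustment over all genes (adjusted p = 0.484 to 0.489). Of all genes tested, 9.64% had an unadjusted p under 0.05 for this term (9.69% with flagged spots kept) and 0 passed. Hamp (-0.72, SE 0.51, with flagged spots kept) and Fth1 (-0.62, SE 0.40) had the same sign with an unadjusted p of 0.184 and 0.149. Tfrc had the opposite sign, at 0.37 (SE 0.32). For Hfe, Bmp6, Slc11a2 and Tfr2 the term lay within 0.08 of 0 (0.00, 0.02, -0.08 and -0.07), with SEs of 0.34 to 0.42. These terms are for the brightest probe of each gene. The dimmer Bmp6 probe differed by -0.28 on slide 1 and 0.20 on slide 2, and the dimmer Hfe probe by 0.23 and -0.06. The dimmer Slc11a2 probes were positive on each slide.

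**Figure D3:**
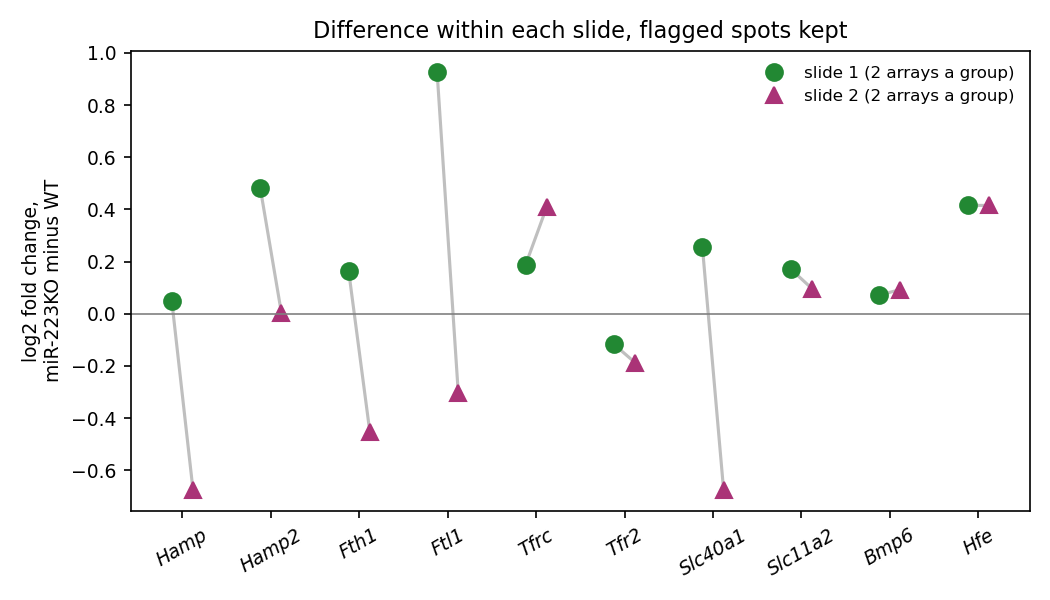
Log2 fold change of miR-223KO minus WT (y axis) within slide 1 (circles) and within slide 2 (triangles) for the brightest probe of each gene, 2 arrays a group on each slide, with flagged spots kept. Hamp, Fth1, Ftl1 and Slc40a1 change sign between the slides, while Hfe, Bmp6, Slc11a2 and Tfr2 read nearly alike on both at these probes.

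The pathways around the members were followed through 7 lists with 142 distinct genes, all on the arrays, of which 111 were tested. In limma 0 of the 111 passed, 1 had an unadjusted p under 0.05, 67 lay higher and 44 lower. The shares over all tested were 0.0119% past the test, 4.67% with an unadjusted p under 0.05 and 48.2% higher. When flagged spots were kept, 132 of the 142 list genes were tested and 0 passed. In the list of hepcidin control by BMP, SMAD and HFE, 10 of 21 tested lay higher, with a median log2 fold change of -0.02 that was 0.14 with median centring. The receptor gene Bmpr2 was the gene with an unadjusted p under 0.05 (0.43, SE 0.19, limma adjusted p = 0.98), and it read 0.13 on slide 1 and 0.72 on slide 2. The other probes of Bmpr2 stood at 0.01 and 0.04.

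Other genes of this list lay on both sides of 0. The inhibitory Smad6 stood at -0.37 (SE 0.21) and Smad7 at -0.35 (SE 0.22), both carried by slide 1 (-0.67 and -0.72) with -0.07 and 0.02 on slide 2. The target gene Id1 stood at -0.05 (SE 0.24) with its other probe at -0.46, and the target gene Atoh8, named after its value was seen, at 0.24 (SE 0.19). The co-receptor gene Hjv stood at -0.22 (SE 0.22), the ligand gene Bmp2 at 0.13 (SE 0.17), and Tmprss6, the protease that cuts hemojuvelin, at -0.17 (SE 0.26) with flagged spots kept. Groups without overlap were seen at 3 of the 111 genes, against 3.09% of all tested. Named here after their values were seen, these were the receptor Acvr2a (-0.25, lower), the signal transducer Smad1 (0.39, higher) and the metal importer Slc39a8 (-0.31, lower). WT replicate 2 and miR-223KO replicate 3 were flagged and left out for Smad1, and groups with fewer values separate more easily. The other probes of Smad1 (-0.13) and Slc39a8 (0.14) pointed the opposite way. For Smad1 the liver channel as normalised differed by -0.09 and the reference channel by -0.47.

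In the list of the IL-6 and STAT3 arm, 8 of 10 tested genes lay higher with a median of 0.23, which was 0.06 with every probe counted on its own, and 0 passed. Of 16 genes only 10 were tested, and 4 more, Saa1, Saa2, Fgb and Crp, were tested only with flagged spots kept. Lcn2, an iron-siderophore binding protein of inflamed liver, stood at 0.82 (SE 0.40, limma adjusted p = 0.98). Its log2 ratio was -1.45, -0.52, 0.81 and -0.50 in WT and 1.16, 0.33, -0.55 and 0.68 in miR-223KO. WT replicate 3 was among the highest and miR-223KO replicate 3 among the lowest, and the difference was 1.73 on slide 1 and -0.09 on slide 2. Inhbb, the activin B subunit that can raise hepcidin, stood at 0.36 (SE 0.20), while Stat3 (-0.11, SE 0.18) and its feedback target Socs3 (-0.05, SE 0.21) lay near 0. Of the 4 acute phase genes, with flagged spots kept, Saa1 stood at 0.31 (SE 0.30), Saa2 at 0.16 (SE 0.33), Fgb at -0.24 (SE 0.21) and Crp at -0.12 (SE 0.24). Il6 was not tested.

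Iron transport genes lay higher at 13 of 18, Tfrc and Slc11a2 among them, with a median of 0.16 (0.10 to 0.24 over all alternatives), and 0 passed. Steap3, the ferrireductase of the transferrin cycle, stood at 0.31 (SE 0.22) and the importer Slc39a14 at 0.12 (SE 0.21). Ceruloplasmin (Cp), which oxidises exported iron, stood at -0.27 (SE 0.25), while with flagged spots kept its brightest tested probe was another one, at 0.21 (SE 0.25). The transferrin gene (Trf) stood at -0.13 (SE 0.32) with flagged spots kept.

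For ferritin and the iron regulatory proteins, 8 of 15 tested genes lay higher with a median of 0.03, and 0 passed. Fbxl5, which degrades iron regulatory protein 2 when iron is present, stood at 0.34 (SE 0.18, other probes -0.11 and 0.64), and Hif1a at 0.40 (SE 0.23). The regulatory protein genes went opposite ways, with Aco1 at 0.24 (SE 0.25) and Ireb2 at -0.23 (SE 0.27), and neither passed. With flagged spots kept Aco1 was read at another, brighter probe, at -0.01 (SE 0.21). Ncoa4, the receptor for autophagy of ferritin, stood at 0.07 (SE 0.26).

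The lists of heme and iron-sulfur genes had medians close to that of all genes, and 0 of their genes passed. Heme synthesis had 5 of 10 higher with a median of 0.00, with the transporter Abcb10 at -0.15 (SE 0.21) and Tspo at 0.10 (SE 0.19), and Alas1, its rate-limiting enzyme in liver, stood at 0.47 (SE 0.32) with flagged spots kept. Heme breakdown and transport had 6 of 12 higher with a median of 0.01. Hmox1 stood at 0.04 (SE 0.22), the heme transporter Slc48a1 at 0.40 (SE 0.21) and Flvcr2 at 0.56 (SE 0.36). For Flvcr2 the liver channel as normalised differed by -0.01 and the reference channel by -0.57, and its highest log2 ratio was 2.66, on miR-223KO replicate 3. The plasma scavengers Hp (0.06, SE 0.22) and Hpx (0.14, SE 0.27) were tested only with flagged spots kept. Iron-sulfur assembly had 17 of 25 higher with a median of 0.04, led by Glrx5 at 0.54 (SE 0.25), which read -0.18 on slide 1 and 1.05 on slide 2, and Bola1 at 0.35 (SE 0.23). With median centring the medians of the heme synthesis, heme breakdown, ferritin and iron-sulfur lists were 0.16 to 0.26, against 0.08 over all genes.

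**Figure D4:**
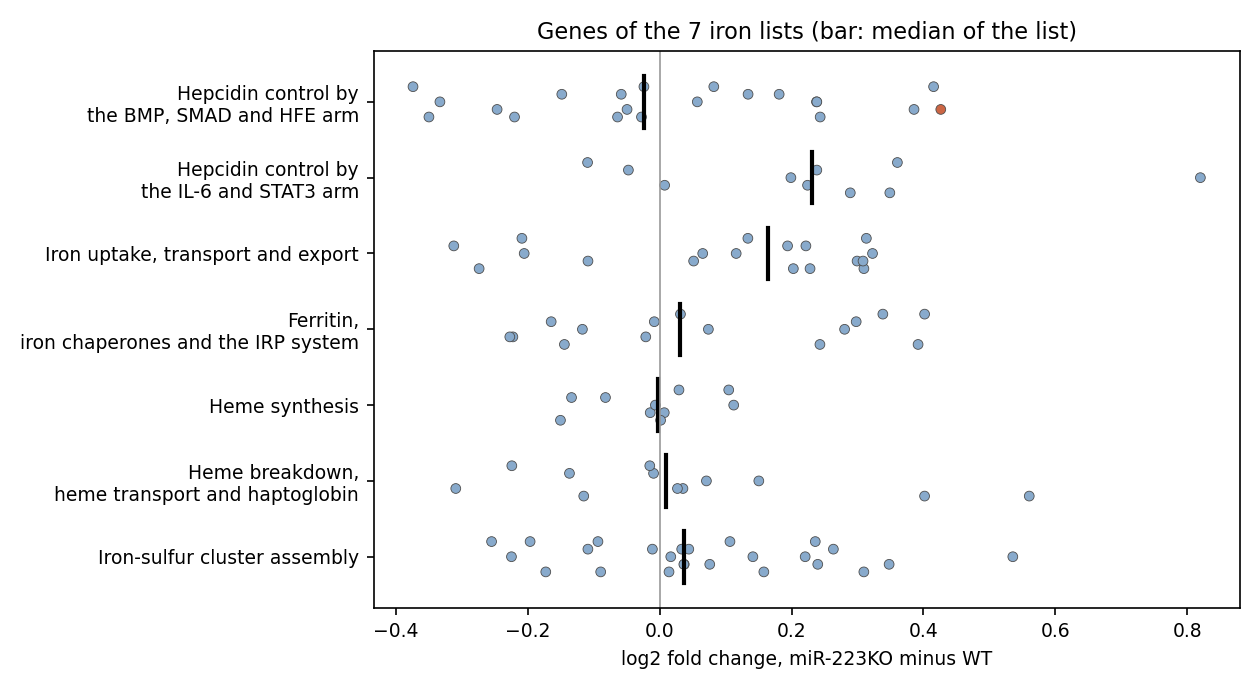
Log2 fold change of miR-223KO minus WT (x axis) for each tested gene of the 7 iron lists (rows), with flagged spots left out; a bar marks the median of each list. The orange point is Bmpr2, the gene with an unadjusted p under 0.05, and no gene passed after adjustment.

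Marker genes of the cells that express these members were read on the same arrays. The same level of the 6 hepatocyte markers tested was 0.923 to 1.98 over the WT arrays and 0.530 to 0.917 over the miR-223KO arrays. The ranges nearly met, and each array averaged only its unflagged markers. All 6 read lower (Alb -0.66, Apoa1 -0.55), while 48.2% of all tested lay higher. Among the 6, 0 passed and 1 had an unadjusted p under 0.05, against 4.67% of all tested. With flagged spots kept, 12 markers were tested, 2 read higher, the median log2 fold change was -0.12 in place of -0.30, and the levels overlapped (0.48 to 0.99 in WT, 0.37 to 0.74 in miR-223KO). Sinusoidal endothelial cells are the main source of BMP6, and the level of their 11 markers was -0.32 to -0.03 in WT and -0.05 to 0.16 in miR-223KO, with 8 of 11 higher, a median log2 fold change of 0.17 (-0.22 to 0.63) and 0 past the test. Flt4 stood at 0.51 and Ptprb at 0.63, with the other Ptprb probe at -0.03. The 4 erythroid and blood markers tested read -0.08 to 0.08 in WT and -0.25 to 0.01 in miR-223KO. The part of cell makeup in the members' values was not tested.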

How the data were processed

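The arrays were Agilent 2-colour arrays (design 014868). Per the file headers, their images were extracted by Feature Extraction 12.0.3.1 (GE2_1200_Jun14), and the grid is named for another genome build than the RefSeq tables. The deposited scanner files give median spot and background signals as intensity, and a log10 ratio that was not used. In the authors' table, log2 ratios are given for 40646 probes. They equal the ratio of the deposited processed signals, and the authors' log2 fold changes are differences of group means.

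Here the median intensities were background-corrected (normexp, offset 50; flagged backgrounds set to the median of the rest), loess-normalised within arrays (flagged and control spots at weight 0), and averaged per probe, in limma 3.58.1 under R 4.3.3. Values by channel were taken after Aquantile normalisation between arrays. A probe was tested if well above background in Cy5 on at least 4 of 8 arrays with at least 3 unflagged values a group, and a gene by its brightest probe. Differences were tested in limma (two-sided, Benjamini-Hochberg over all genes, threshold 0.05). The procedure was tested on simulated data with 200 changed genes. It recovered 54% of changes of 1 log2 unit and 97% of changes of 2, with 10 calls among unchanged genes. Smaller changes were not simulated. The simulated noise was drawn independently for each gene and array, with no slide effect. With only 2 calls in the real data, the adjustment is stricter than with 200 changed genes. The shares recovered are thus not the odds that a change in a member would be called. Alternatives were other offsets, normalisations, filters, blocks and left-out replicates.

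The members, lists and alternatives were chosen with earlier results of these data known. Named genes are the members, the 2 with the smallest p of each list and a fixed set of iron genes, from which not every gene is given. Saa2, Fgb and Crp were added after their values were seen. Names came from RefSeq accessions for 28462 probes and from the authors' symbols for 6902, and 5810 had none. Replicate numbers are not said to pair the samples. The correlation of same-numbered deviations was -0.02 to 0.06, which with so few samples cannot exclude pairing.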

Additional observations from a re-analysis of the deposited data

Results flagged for a closer look

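Within the groups of 4 arrays, the highest or lowest value stood far from the rest for 2 of the 28 groups examined (14 probes in each genotype), by a test that chance alone meets in about 1 of 20 groups. For Hamp2 the WT replicate 2 value of -1.41 lay below the other 3 WT values, with a gap of 0.866 of the group's range. For the dimmer Bmp6 probe (A_52_P413646) the miR-223KO replicate 4 value of 0.87 lay above the other 3, with a gap of 0.889 of the range, and the brighter Bmp6 probe read 0.28 on that array.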

How the results depend on the processing

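Over 196 alternative values of the 10 members, 183 kept the direction, 13 turned it and 0 passed the test (limma adjusted p at least 0.842). Normalisation between arrays, the filters on dim probes and the blocks left most members' fold changes unaltered. Fth1, for example, stayed at -0.14 under each of these. Much of the count of kept directions was thus fixed in advance and does not measure robustness. Turned values were, with median centring, 0.0019 (Hamp, flagged spots kept), 0.036 (Hamp2), 0.24 (Fth1), 0.11 (Tfr2, flagged spots kept) and 0.019 (Slc40a1); in the authors' log2 ratios, 0.28 (Hamp2) and 0.091 (Fth1); and with flagged spots kept, 0.24 (Hamp2). With 1 replicate left out, Hamp2 ran from -0.50 to 0.24 and Fth1 from -0.28 to 0.0037, both turned without miR-223KO replicate 3. Tfr2 ran from -0.28 to 0.0096, turned without WT replicate 4. Bmp6 ran from -0.037 (without WT replicate 4) to 0.20, and was -0.035 without miR-223KO replicate 2. The cause was not tested. Tfrc (0.24 to 0.45), Slc11a2 (0.02 to 0.38), Hfe (0.25 to 0.60) and Ftl1 (0.06 to 0.70) kept their sign under every alternative tried.

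The count of all genes past the test, 2, was 1 with flagged spots kept, in the authors' log2 ratios, with median centring and with the mean of a gene's probes, and 4 with a normexp offset of 16. It was 2 to 4 with 1 replicate left out, 4 without miR-223KO replicate 1. With the replicate number as a block it was 2 and 0 members passed, and 1 of 4 WT samples correlated best with its own number. Members past the test numbered 0 under each of these settings.

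The limit is 4 arrays a group with a median SE of 0.21. Hamp, Ftl1 and Tfr2 rest on flagged spots, and no dye swap parts dye from sample.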
